A study of Mus musculus with 170 samples.

Results

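The genes of the proteasome were examined in single cells of the mouse embryonic heart. They were taken from the expression table by symbol, as every gene whose symbol starts with Psma, Psmb, Psmc, Psmd, Psme, Psmf or Psmg followed by a digit. This gave 50 of the 40549 genes in the table, after 4 symbols holding -ps, which marks pseudogenes, had been left out. Of the 50 members, 14 encode the 20S core (7 alpha and 7 beta subunits) and 17 encode the 19S cap. The others encode tissue-restricted or immune forms of core subunits, alternative caps, an inhibitor and assembly chaperones. Psmc3ip, a cofactor of meiotic recombination, and Psme2b, a copy of Psme2, matched by symbol and have no listed role in the complex.

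The proteasome degrades proteins that carry ubiquitin chains, and in heart muscle it turns over sarcomere proteins and damaged proteins. Its barrel-shaped core is made of stacked rings, outer alpha rings that guard the entrance and inner beta rings whose subunits Psmb5, Psmb6 and Psmb7 cut peptide bonds. Interferon and immune cells replace these by Psmb8, Psmb9 and Psmb10, which form the immunoproteasome. The cap recognises ubiquitin through its lid and base and feeds the unfolded protein into the core with a ring of ATPases. Psmg1 to Psmg4 help to build the alpha ring of the core.

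Cells were picked by hand from the ventricular part of E9.5 hearts of C57BL/6 mice and sequenced by Smart-seq2, a full-length protocol without strand information or molecular identifiers. Control embryos, labelled wild type, were Dgcr8 loxP/loxP; Rosa26 mT/mG/+ according to the study's methods and carried no Cre. Conditional knockout (cKO) embryos, labelled Mesp1Cre/+; Dgcr8-/-, carried the same floxed alleles and reporter together with Cre expressed from the Mesp1 locus, which is active in mesoderm progenitors of the heart, so that cells of other origins kept Dgcr8. Dgcr8 encodes the RNA-binding subunit of the microprocessor, which releases microRNA precursors. The table held 35 control and 35 cKO cells of sequencing batch 1 and 39 control and 34 cKO cells of batch 2, 74 and 69 in all, and the study had left out cKO cells without reporter recombination.

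The labels name no embryo, so each genotype counted as 1 sample, no test was run, and every difference is a description of these cells. Values are TPM, transcript abundances that are scaled by transcript length and to a fixed total per cell, so that sequencing depth is unknown and genes can be compared with each other. Marker genes that include no proteasome member divided the cells into 5 clusters. The largest held 94 cardiomyocyte-like cells (CM-like, all 15 cardiomyocyte markers raised), and another held 22 endothelial-like cells (EC-like, 12 of 13 endothelial markers). The others were 13 epicardial-like cells (6 of 6 epicardial and 9 of 14 mesenchymal markers), 5 erythroid-like cells and 9 unnamed cells. The cluster of unnamed cells was led by mitochondrial transcripts. The CM-like class held 27 control cells, 19 of batch 1 and 8 of batch 2, and 67 cKO cells, 33 of batch 1 and 34 of batch 2. All EC-like, epicardial-like and erythroid-like cells were control cells. In the CM-like class, Dgcr8 reached 1 TPM in 14 of 27 control cells (51.9%, 95% Clopper-Pearson interval 31.95 to 71.33) and in 21 of 67 cKO cells (31.3%, 20.6 to 43.8). These intervals cover counting error only. Genotype coincided with sex-linked transcripts, since Xist reached 1 TPM in 0 of 27 control cells (a count of 0 allows up to 11.1% here) and in 64 of 67 cKO cells.

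The core genes were on average more abundant than the cap genes in CM-like cells. Psmb6, the catalytic beta subunit with caspase-like activity, was the highest core member in both genotypes, with a mean of 1262 TPM in control and 820 TPM in cKO cells. The mean over the 14 core members was 560 TPM in control cells against 179 TPM over the 17 cap members, a ratio of 3.12, and the ratio in cKO cells was 2.72. Within the core the highest member exceeded the lowest by 3.91 times in control and by 4.00 times in cKO cells. The lowest core member was the alpha subunit Psma4 in control and Psmb7, the catalytic subunit with trypsin-like activity, in cKO cells. Within the cap, the highest member was the ATPase Psmc5 in control and the ubiquitin receptor Psmd4 in cKO cells, and the lid subunit Psmd3 was lowest in both. The order of the mean levels was much alike between the genotypes, with a Spearman coefficient of 0.93 over the 14 core and 0.94 over the 17 cap genes.

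**Figure D1:**
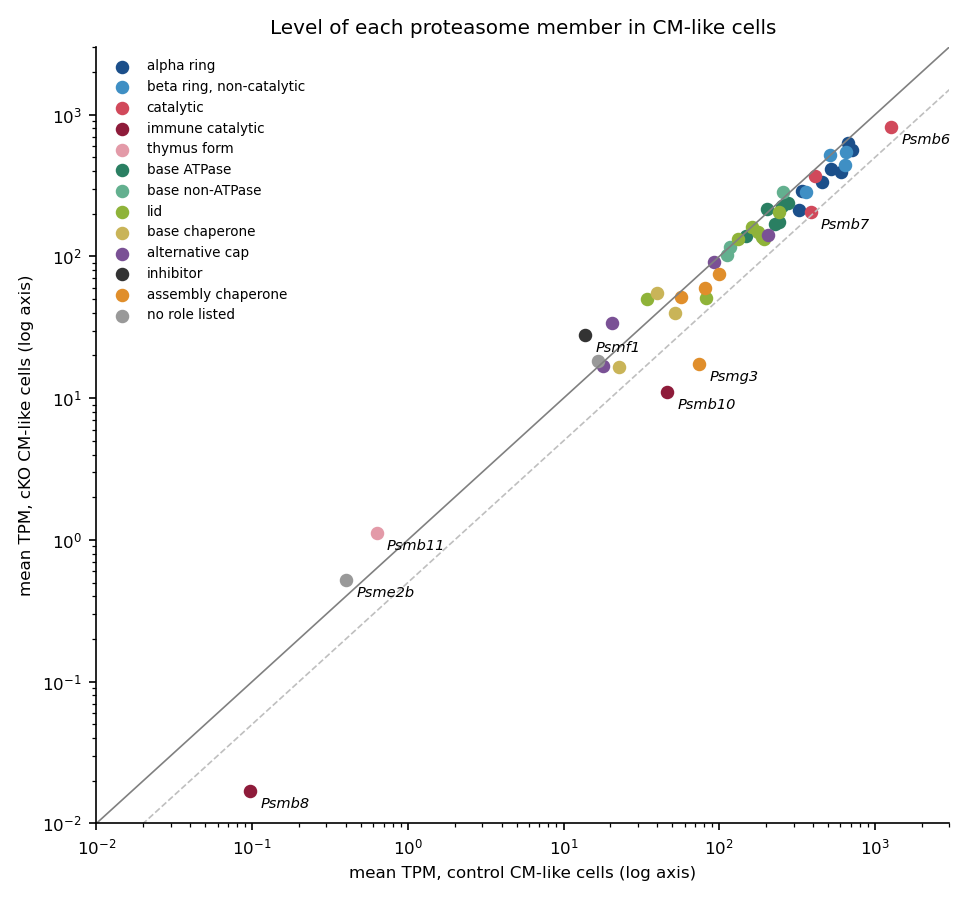
Mean TPM of each proteasome member in 27 control (x axis) and 67 cKO (y axis) CM-like cells, both on log axes, coloured by role, with equality as a solid line and a 2-fold lower level in cKO cells as a dashed line. Core members sit at the top right, most of them between the lines, with Psmb7 close to the dashed one. Psmb10, Psmg3 and the barely detected Psmb8 lie below the dashed line, and Psma8 and Psmb9, at 0 in cKO cells or in both genotypes, are not drawn.

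The summed core and the summed cap were lower on average in cKO than in control CM-like cells. A control CM-like cell held between 1024 and 11372 TPM of core transcripts, with a median of 8971, and a cKO cell held between 1761 and 9476 TPM, with a median of 6278. The ranges overlapped, and the upper quartile of the cKO cells, 7261 TPM, lay below the control median. The mean of the core sum was 7843 ± 2490 TPM (SD, 27 cells) in the control and 6022 ± 1885 TPM (67 cells) in the cKO group, a log2 ratio of −0.38. The ratio was −0.26 in batch 1 and −0.54 in batch 2. The summed cap level was 3049 ± 943 TPM in control and 2684 ± 834 TPM in cKO cells, a log2 ratio of −0.18, with −0.07 in batch 1 and −0.40 in batch 2. The core took 0.784% of all TPM in control and 0.602% in cKO cells. Core and cap sums varied together across cells, with a Spearman coefficient of 0.59 in the 27 control and also 0.59 in the 67 cKO cells, values that share the library and the scaling of each cell.

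**Figure D2:**
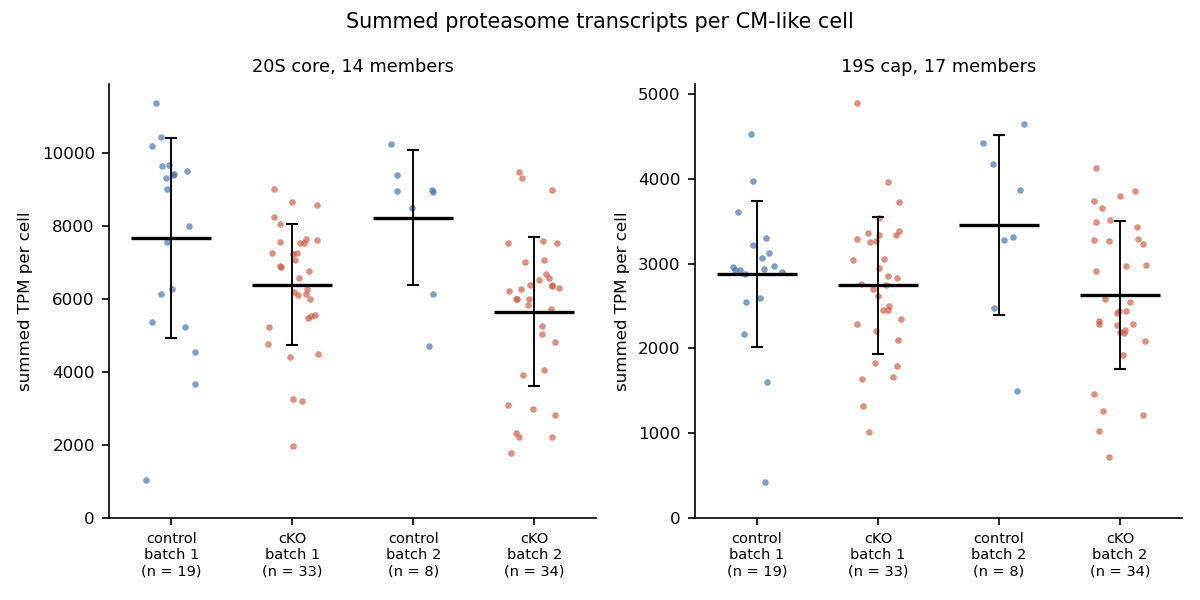
Summed TPM per CM-like cell of the 14 core members (left) and of the 17 cap members (right), by genotype and sequencing batch, with 1 point per cell, the mean as a bar and the SD across cells as whiskers. The cKO mean is below the control mean in each batch for the core (6399 against 7677 TPM in batch 1 and 5657 against 8238 TPM in batch 2), with wide overlap between the cells.

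Detected genes and mitochondrial transcripts also differed between the groups. The median number of detected genes was 8458 in control and 9845 in cKO CM-like cells of batch 1, and 9704 in control and 7765 in cKO cells of batch 2, so the difference in detected genes turned between the batches. The core sum correlated with the number of detected genes at a Spearman coefficient of 0.58 in the 27 control cells, −0.23 in the 33 cKO cells of batch 1 and 0.57 in the 34 cKO cells of batch 2. Mitochondrial transcripts took a median of 6.30% of TPM in control and 3.00% in cKO CM-like cells. In CM-like cells with 7000 to 11000 detected genes (23 control, 56 cKO), the log2 ratio of the core sum was −0.30 and that of the cap sum −0.14. With mitochondrial transcripts left out and TPM rescaled, these ratios were −0.44 and −0.24. The 14 mesenchymal markers summed to a median of 168 TPM in control and 480 TPM in cKO CM-like cells, and the 13 endothelial markers to 17.3 and 51.4 TPM, against 65476 and 90679 TPM for the 15 cardiomyocyte markers.

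By gene, most members were lower in cKO than in control CM-like cells. A member was compared where it had TPM above 0 in more than 10 CM-like cells, which 47 of the 50 did, all except Psma8, Psmb8 and Psmb9. The difference of the mean log2(TPM + 1) was below 0 for 39 of the 47, with a median of −0.46. Over all 15071 genes compared, the median was 0.05 and 6652 genes were below 0. Among the 1614 of them with a mean log2(TPM + 1) of at least 5, 826 were below 0. The median of the members was −0.05 in batch 1 and −0.93 in batch 2, against 0.17 and −0.20 for all genes. For the 1614 genes with a mean log2(TPM + 1) of at least 5, the pooled median was −0.03. It was 0.26 in batch 1 and −0.49 in batch 2, so these abundant genes were also lower in batch 2. In both batches, the median of the members was thus below that of all genes, and the batch 2 value was the lower. The median of the members depended on the cells and the scale. It was −0.23 in cells with 7000 to 11000 detected genes, with 0.03 in batch 1 and −0.71 in batch 2, where the median of all genes was 0.11 (0.21 and −0.19), and it was also −0.23 as the log2 ratio of mean TPM. In cells with 7000 to 11000 detected genes, 31 of the 47 members were below 0, and the count over all genes was not taken there. Lower in both batches were 26 members (55.3%), where 25% of all genes were, and higher in both were Psmc2 and Psmc6 (4.26%), where 29.9% of all genes were. At least 1 lower on the log2 scale were 3 members, Psmb10, Psmg3 and Psmb7 (6.38%), against 6.31% of all genes. None was at least 1 higher, against 7.19% of all genes. The share of members with a large difference was therefore near the background. Among genes with a mean log2(TPM + 1) of at least 5, 20 of 31 members (64.5%) were lower in both batches against 35.7% of the 1614 genes, and 1 of 31 members was at least 1 lower against 10.8%.

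**Figure D3:**
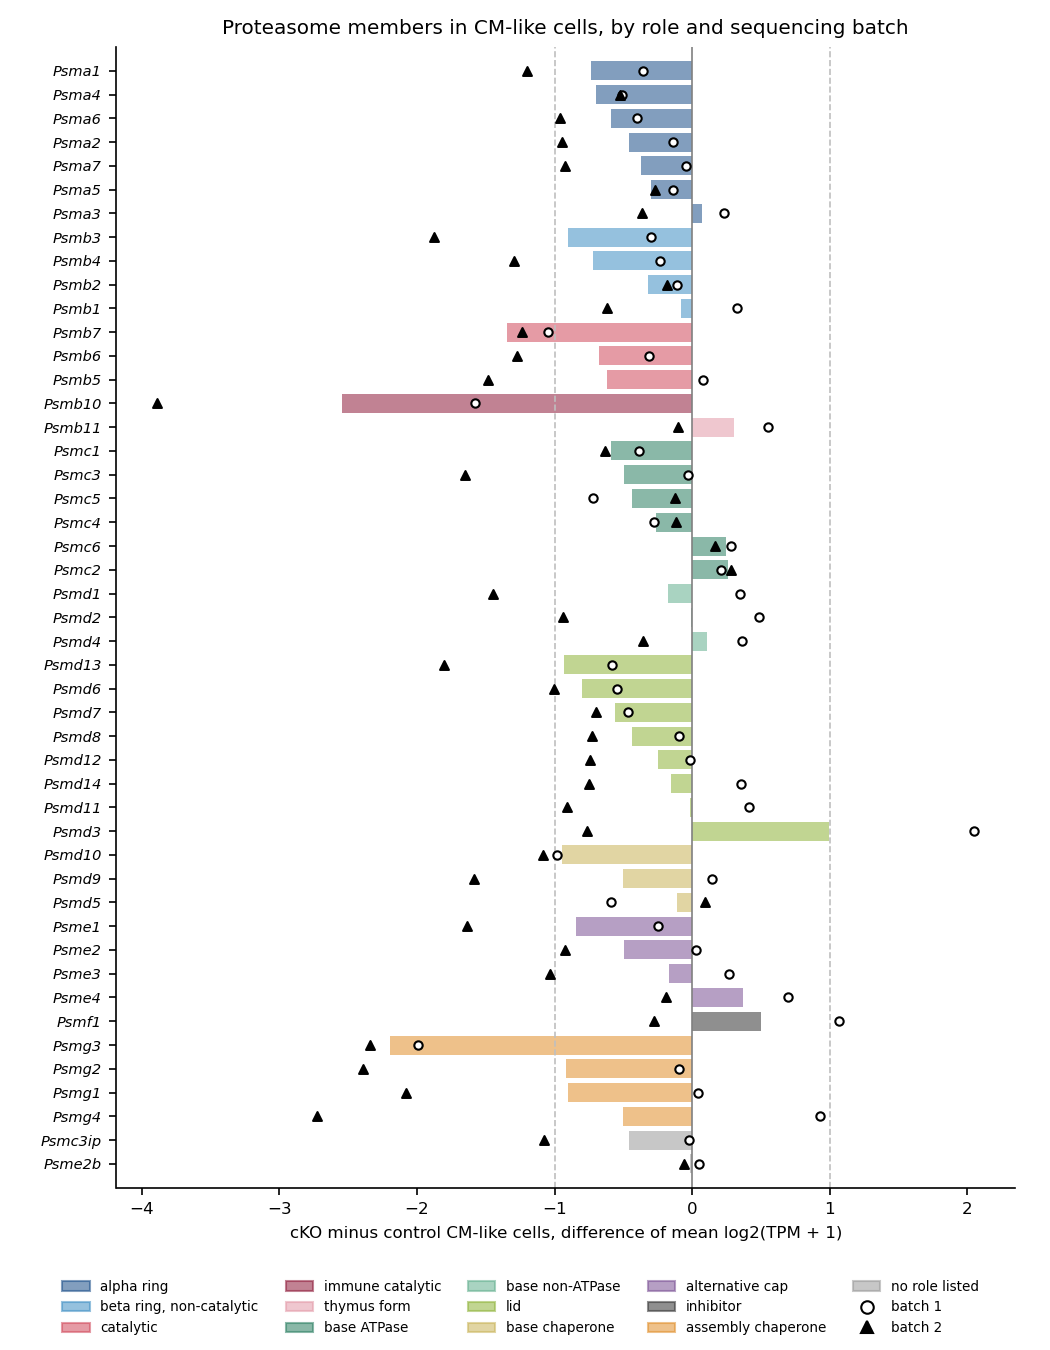
Difference of the mean log2(TPM + 1) between 67 cKO and 27 control CM-like cells for the 47 members compared, ordered by role, with the pooled value as a bar, batch 1 as open circles and batch 2 as triangles. Dashed lines mark a difference of 1. The batch 2 value lies further below 0 than the batch 1 value for most members, and Psmb7, Psmb10 and Psmg3 are more than 1 lower in each batch.

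The count of members at least 1 lower depended on a few cells. It was between 5 and 8 instead of 3 when any of 10 control CM-like cells was left out singly, and it was 8 without a batch 1 control cell that had 6929 detected genes and 24.8% mitochondrial TPM. The 9 unnamed cells, 7 of them control, were kept apart from the CM-like class. Their cluster was led by mitochondrial transcripts, but these ranged from 4.32% to 61.1% of TPM across the 7 control cells. Those 7 cells held a median of 1884 TPM of core transcripts, with a highest value of 10190 TPM. When a coarser division of 4 clusters put these 9 cells into the CM-like class, the median difference of the members turned to 0.36. The direction given here therefore holds for the CM-like cells without them.

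Of the alpha ring, 6 of 7 members (85.7%) were lower in cKO cells in both batches, with a median difference of −0.46. The share was 25% of all genes and 35.7% of abundant genes. For Psma1 the mean log2(TPM + 1) and its SD across cells were 8.88 ± 1.54 for controls and 8.15 ± 1.53 for cKO, a difference of −0.74. Psma5 had the smallest such difference, −0.30, and Psma3 differed by 0.07, with 0.23 in batch 1 and −0.37 in batch 2. Each of these differences was smaller than the SD across cells. Psma8, the alpha subunit of the testis, exceeded 1 TPM in 1 of 27 control cells and in 0 of 67 cKO cells, a count that allows up to 4.48%.

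The 4 non-catalytic beta subunits had a median difference of −0.52. Psmb3 differed most, at 9.01 ± 1.22 in control and 8.10 ± 2.07 in cKO cells, a difference of −0.90 that was −0.30 in batch 1 and −1.88 in batch 2. In cells with 7000 to 11000 detected genes the difference of Psmb3 was −0.36. Psmb2 differed by −0.32. Psmb1 was close between the genotypes in mean TPM, at 515 in control and 521 in cKO cells.

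The 3 constitutive catalytic subunits differed unequally. Psmb7 had values between 0 and 9.42 in control CM-like cells, with a median of 8.60, and between 0 and 9.40 in cKO cells, with a median of 7.73. The ranges overlapped over their whole length, and the lower quartile of the control cells was level with the upper quartile of the cKO cells, at 8.16. Its mean was 8.17 ± 1.82 in control and 6.82 ± 2.34 in cKO cells, a difference of −1.34 (−1.05 in batch 1 and −1.24 in batch 2), and its mean TPM was 386 and 205. Psmb6 was present at 1 TPM or more in every CM-like cell, with a median of 10.26 (4.02 to 11.18) in control and 9.66 (2.66 to 10.87) in cKO cells and a mean difference of −0.68. Psmb5, the subunit with chymotrypsin-like activity, had a median of 8.84 in control and 8.57 in cKO cells, and its mean difference was 0.08 in batch 1 and −1.48 in batch 2. In batch 2, 3 of 34 cKO cells had Psmb5 below 1 TPM, whereas all 27 control cells and all 33 cKO cells of batch 1 were at or above it. In cells with 7000 to 11000 detected genes the mean differences were −1.09 for Psmb7, −0.23 for Psmb6 and −0.15 for Psmb5.

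Psmb7 was also lower in cKO cells relative to the other core genes. Its mean TPM was 67.3% of the mean of the other core members in control cells and 45.8% in cKO cells. The same share went from 71.7% to 50.01% in batch 1 and from 57.6% to 41.2% in batch 2. In control cells of other classes it was 67.6% (EC-like), 72.1% (epicardial-like) and 62.2% (erythroid-like). Psmb5 went the other way, from 71.7% in control to 84.9% in cKO cells. Most of this was in batch 1, from 68.8% to 89.1%, against 78.1% to 80.4% in batch 2. Psmb7 lies at chr2:38588036-38644087 on the minus strand (GRCm38) and overlaps Nek6, a mitotic kinase gene on the opposite strand, by 405 exonic bases. The libraries are not stranded, so reads from that stretch cannot be assigned to either gene.

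The immune subunits were represented almost only by Psmb10. Psmb9 was listed at 0 in every CM-like cell, and Psmb8 reached 1 TPM in 1 of 27 control and 0 of 67 cKO cells. Psmb10, the immune counterpart of Psmb7, ranged from 0 to 8.24 in control CM-like cells with a median of 5.09, and from 0 to 6.26 in cKO cells with a median of 0. The groups overlapped, and the upper quartile of the cKO cells was 3.85. Psmb10 reached 1 TPM in 21 of 27 control cells (77.8%, 57.7 to 91.4) and in 23 of 67 cKO cells (34.3%, 23.2 to 46.9). By batch, the shares were 73.7% and 51.5% in batch 1 and 87.5% and 17.6% in batch 2. Its mean was 4.14 ± 2.55 in control and 1.59 ± 2.29 in cKO cells, a difference of −2.55 (−1.58 in batch 1 and −3.89 in batch 2). This was the lowest difference of the members and the 44th lowest of the 15071 genes.

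Psmb10, Psmb8 and Psmb9 together made up 2.20% of the TPM of the 6 catalytic subunits in control CM-like cells, against 0.785% in cKO. The share was 1.83% against 0.981% in batch 1 and 2.98% against 0.550% in batch 2. The highest Psmb10 value of a control CM-like cell, 8.24, was in a batch 2 cell with 3805 detected genes. Leaving out 1 batch 2 control cell lowered the pooled control share to 1.71%. As a median over cells, the share was 1.35% in control and 0 in cKO cells. The constitutive subunits thus carried nearly all catalytic transcripts in both genotypes. Psmb11, the thymus form of the catalytic subunit, had a mean of 0.63 TPM in control and 1.12 TPM in cKO cells.

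**Figure D4:**
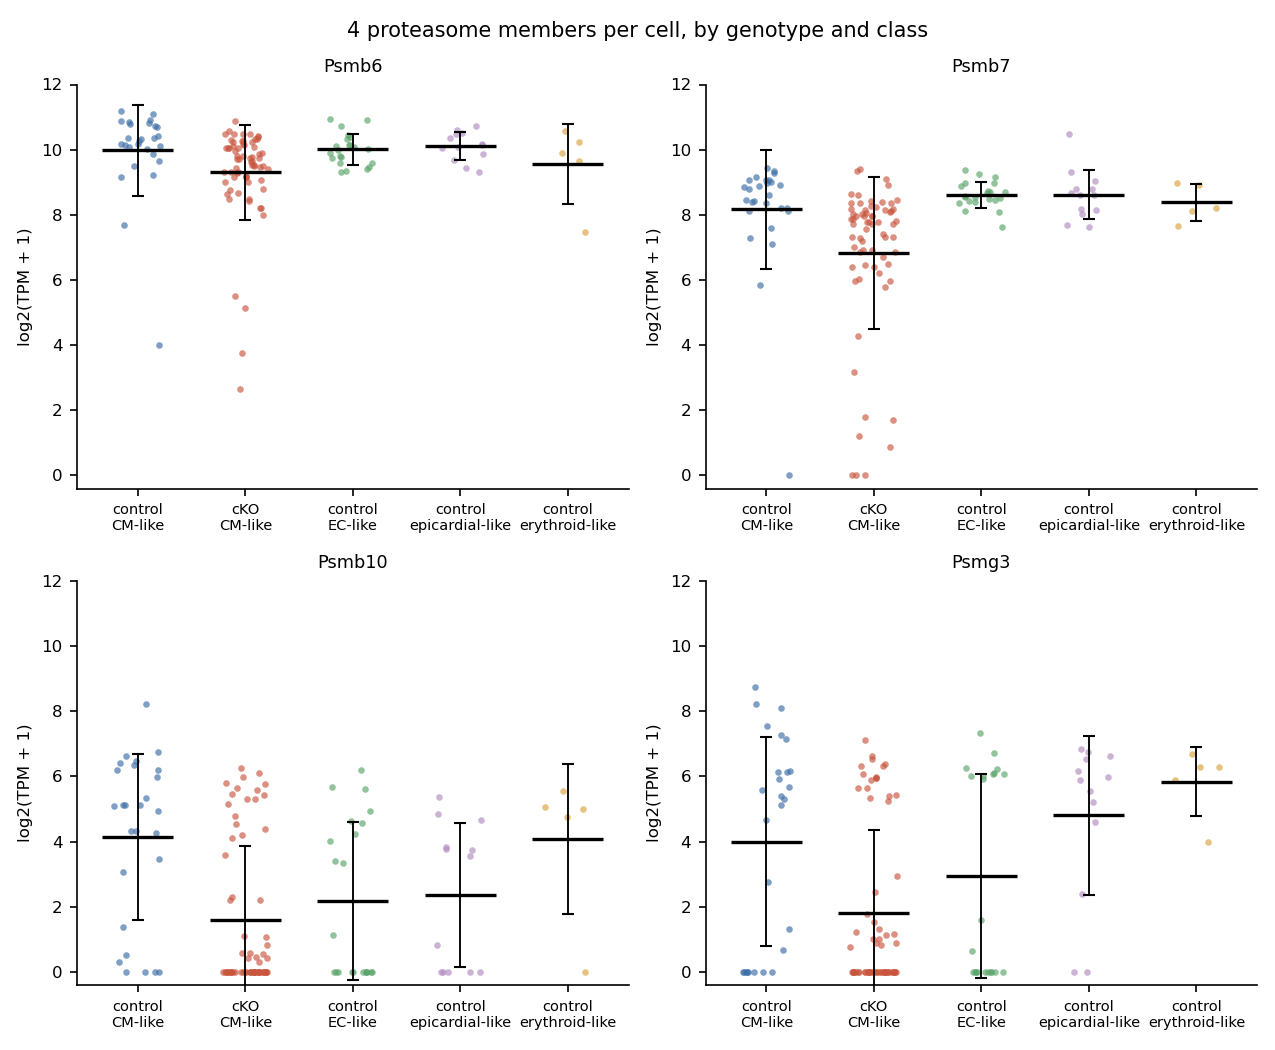
Level per cell, as log2(TPM + 1), of Psmb6, Psmb7, Psmb10 and Psmg3 in control and cKO CM-like cells and in control cells of the other named classes, with 1 point per cell, the mean as a bar and the SD across cells as whiskers. Psmb10 and Psmg3 fall into cells near 0 and cells around 4 to 8, and the cKO CM-like group holds the largest share of cells near 0 in both panels.

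The assembly chaperones of the core had the lowest median among the roles with several members, −0.91. Psmg3 ranged from 0 to 8.76 in control CM-like cells with a median of 5.30, and from 0 to 7.12 in cKO cells with a median of 0. It reached 1 TPM in 18 of 27 control cells (66.7%, 46.04 to 83.48) and in 26 of 67 cKO cells (38.8%, 27.1 to 51.5). The mean was 4.00 ± 3.20 in control and 1.80 ± 2.54 in cKO cells, a difference of −2.19 that was −1.99 in batch 1 and −2.34 in batch 2. The difference was of like size in both batches and smaller than the SD across cells. Psmg1, the partner of Psmg2, and Psmg2 had pooled differences of −0.90 and −0.92, with 0.04 and −0.10 in batch 1 and −2.08 and −2.39 in batch 2. Psmg4, the partner of Psmg3, differed by 0.93 in batch 1 and by −2.72 in batch 2. Apart from Psmg3, the chaperones were thus lower in batch 2 and close to control or higher in batch 1. Pomp, which matures the core and is not among the members, differed by −0.20.

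To place the subunits that differed most beside an abundant one, RefSeq start site windows of 300 bases that run to base 50 of the transcript (GRCm38.p6) are given for Psmb6, Psmb10 and Psmg3. Capitals mark a match to the antioxidant response element TGACNNNGC in Psmb6 and to the ETS motif CCGGAAG in Psmg3, on the strand printed. Psmb7 has no entry.
Psmb6, chr11:70525107-70525406, plus strand: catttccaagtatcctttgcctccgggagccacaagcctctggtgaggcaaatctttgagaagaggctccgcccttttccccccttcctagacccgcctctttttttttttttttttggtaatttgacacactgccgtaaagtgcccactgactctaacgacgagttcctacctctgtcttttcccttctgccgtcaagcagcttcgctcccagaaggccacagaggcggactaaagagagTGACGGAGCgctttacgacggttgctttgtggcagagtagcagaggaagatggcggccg
Psmb10, chr8:105938343-105938642, minus strand: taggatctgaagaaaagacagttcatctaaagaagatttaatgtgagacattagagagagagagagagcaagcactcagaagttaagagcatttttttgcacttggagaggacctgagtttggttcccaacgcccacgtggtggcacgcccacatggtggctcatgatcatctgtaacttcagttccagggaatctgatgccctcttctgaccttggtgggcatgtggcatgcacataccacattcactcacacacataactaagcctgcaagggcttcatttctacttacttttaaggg
Psmg3, chr5:139826845-139827144, minus strand: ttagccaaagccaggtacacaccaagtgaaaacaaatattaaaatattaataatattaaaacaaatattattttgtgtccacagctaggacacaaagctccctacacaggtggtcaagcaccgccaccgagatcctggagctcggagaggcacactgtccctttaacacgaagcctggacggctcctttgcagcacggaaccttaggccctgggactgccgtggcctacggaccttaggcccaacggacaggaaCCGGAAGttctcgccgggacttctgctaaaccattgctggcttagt

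The match in Psmb6 begins 9 bases before the start site and the match in Psmg3 at base 5 of the transcript. Start site windows of 42 of the 50 members were found by symbol and searched on both strands. TGACNNNGC, the letters bound by Nfe2l1 and Nfe2l2, was present for 6 of 42 members (14.3%) and for 13.99% of 27025 genes. CCGGAAG was present for 15 of 42 members (35.7%) and for 9.93% of genes. CCAAT, the letters bound by NF-Y, was present for 15 of 42 (35.7%) and for 41.1% of genes. A match describes letters in the window and not binding. The window of Psmb10 held no match to these motifs.

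The cap differed less than the core. Of its 17 members, 9 were lower in cKO cells in both batches (52.9%) and 2 were higher in both (11.8%), with a median difference of −0.25. The core had a median of −0.61, and 11 of 14 were lower in both (78.6%). Of all genes, 25% were lower and 29.9% higher in both batches, and of abundant genes 35.7% and 30.3%. Among the ATPases, Psmc1 had the lowest difference, −0.59. Psmc2 stood at 6.47 ± 2.06 in control and 6.73 ± 1.29 in cKO cells, a difference of 0.26, and Psmc6 differed by 0.24. All 6 ATPases had the same sign in both batches. The base subunits without ATPase activity, Psmd1, Psmd2 and Psmd4, differed by −0.18, −0.01 and 0.11, each with opposite signs in the batches.

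In the lid, 5 of 8 members (62.5%) were lower in both batches, against 25% of all genes and 35.7% of abundant genes. Psmd13 had the lowest difference, −0.93, and overlaps Sirt3 on the opposite strand by 342 exonic bases, which these libraries do not resolve. Psmd12 differed by −0.25. Psmd3 was the member with the highest pooled value, 0.998, and it differed by 2.05 in batch 1 and by −0.76 in batch 2. No lid member was higher in cKO cells in both batches. Psmd14, the enzyme that removes ubiquitin chains, differed by 0.35 in batch 1 and by −0.75 in batch 2.

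Of the 3 chaperones of the base and the 4 alternative cap genes, Psmd10 and Psme1 were lower in cKO cells in both batches. Psmd10, an ankyrin-repeat chaperone and the only member on the X chromosome (chrX:140948429-140956728), differed by −0.95, with −0.98 in batch 1 and −1.08 in batch 2. Psme1 and Psme2 form the interferon-inducible PA28 cap. Psme1 stood at 6.88 ± 2.05 in control and 6.03 ± 2.51 in cKO cells, a difference of −0.84 that was −0.24 in batch 1 and −1.64 in batch 2, and Psme2 differed by −0.49 (0.03 and −0.93). Psme3, the nuclear form of that cap, differed by −0.17 (0.26 and −1.03) and Psme4, which encodes the large single-chain activator PA200, by 0.37 (0.70 and −0.19). The base chaperones Psmd5 and Psmd9 also had opposite signs in the batches, with −0.59 and 0.09 for Psmd5 and 0.14 and −1.58 for Psmd9. Psmf1, which encodes the inhibitor PI31, differed by 1.07 in batch 1 and by −0.28 in batch 2. Psmc3ip differed by −0.46 and Psme2b by −0.01.

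Genes that work with the proteasome were looked up as listed groups. Of 19 genes for other proteasome parts, ubiquitin and its carriers, 5 had a lower and 6 a higher mean in the cKO group of each batch, and the median difference was −0.11. These shares, 26.3% and 31.6%, were near those of all genes, 25% and 29.9%. Among the highest were Zfand5, an activator of the 26S proteasome, with 1.47 (1.22 in batch 1 and 1.39 in batch 2), and Akirin2, which carries proteasomes into the nucleus, with 1.14 (1.25 and 0.96). The lowest was Shfm1, a small lid subunit, with −0.79. Among regulators, Nfe2l1, the transcription factor that induces proteasome genes, differed by 0.31 in batch 1 and −0.03 in batch 2, whereas Ddi2, the protease that activates it, differed by −0.75 and −0.79. Of 13 antigen-processing genes, 9 were compared, with a median of 0.12. The class I gene H2-K1 was the highest, with 3.16 (2.75 in batch 1 and 3.27 in batch 2), and Irf1 and Tapbp were the lowest, each with −0.36. Of the 9, 7 were above 0 (77.8%, against 55.9% of all genes), and 4 were higher in both batches (44.4%, against 29.9%). The 8 genes of the CCT chaperonin, another multi-subunit complex, had a median of −0.32 (0.09 in the cells of batch 1, −0.76 in those of batch 2), so a lower value in batch 2 was also seen in a complex outside the proteasome.

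Among classes of control cells, the core sums pooled over the batches were at similar levels. The summed core was 7843 ± 2490 TPM in 27 CM-like cells, 8205 ± 1375 TPM in 22 EC-like cells, 8628 ± 1745 TPM in 13 epicardial-like cells and 7710 ± 1415 TPM in 5 erythroid-like cells. These means differed by less than the SD across cells. The classes were spread unequally over the batches. Batch 1 held 19 CM-like, 7 EC-like and 4 epicardial-like cells, and batch 2 held 8, 15 and 9. All 5 erythroid-like cells were of batch 2. By gene, the median core difference of EC-like from CM-like cells was 0.64 in batch 1 and −0.04 in batch 2. For epicardial-like cells it was 0.59 and −0.09. The cap sum was 3049 TPM in CM-like, 3490 TPM in EC-like, 4041 TPM in epicardial-like and 3406 TPM in erythroid-like cells. The comparisons of EC-like and of epicardial-like cells below share the 27 control CM-like cells with each other and with the comparison of genotypes.

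In EC-like cells, the median difference of 47 members from CM-like cells was 0.45, with 0.78 in batch 1 and −0.01 in batch 2. That of 13130 genes was 0.29. Over the 1752 genes with a mean log2(TPM + 1) of at least 5, it was 0.47, with 0.76 in batch 1 and 0.14 in batch 2. The pooled median of the members was thus near that of abundant genes. The cap had a median of 0.64 (0.91 in batch 1 and 0.08 in batch 2) and the core of 0.30 (0.64 and −0.04). Higher in both batches were 21 members (44.7%), against 41.7% of all genes. Among abundant genes, these were 16 of 33 members (48.5%), against 49.3% of the 1752. At least 1 higher were 6 (12.8%), against 22.7% of all genes, and at least 1 lower were Psmb10, Psmg3 and Psme1 (6.38%), against 8.97%. The count higher in both batches was thus near the background, and the count at least 1 higher was below it. Psmf1 had the highest difference, from 2.29 ± 2.26 in CM-like to 4.93 ± 2.14 in EC-like cells, which is 2.64 higher (3.67 in batch 1 and 1.85 in batch 2). It reached 1 TPM in 16 of 27 CM-like and in 19 of 22 EC-like cells. Psmd13 was 1.78 higher, and Psmb10 differed by −1.96 (−1.35 in batch 1 and −2.79 in batch 2). Psme1 differed by −1.01 (−1.02 and −1.30). Psmg3 differed by −1.04, with 0.05 in batch 1 and −1.49 in batch 2, so it was not lower in batch 1.

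In epicardial-like cells, the median difference of 46 members was 0.61, with 0.70 in batch 1 and 0.12 in batch 2. That of 11909 genes was 0.29. Over the 1766 genes with a mean log2(TPM + 1) of at least 5, it was 0.46, with 0.48 in batch 1 and 0.18 in batch 2. Higher in both batches were 19 members (41.3%), against 35.2% of all genes. Among abundant genes, these were 17 of 33 members (51.5%), against 46.7% of the 1766. At least 1 higher were 7 (15.2%), against 22.9%, and at least 1 lower were Psmb10 and Psme1 (4.35%), against 8.54%. The cap stood higher than the core there, as it did in EC-like cells, with a median of 0.88 against 0.36. Higher in both batches were 12 of 17 cap members (70.6%) and 6 of 14 core members (42.9%), against 46.7% of abundant genes. All 8 lid members were higher in both batches. Psmd2, a scaffold of the base, had the highest difference, 1.48. Psme1 had the lowest, −2.01 (−3.31 in batch 1 and −1.73 in batch 2).

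**Figure D5:**
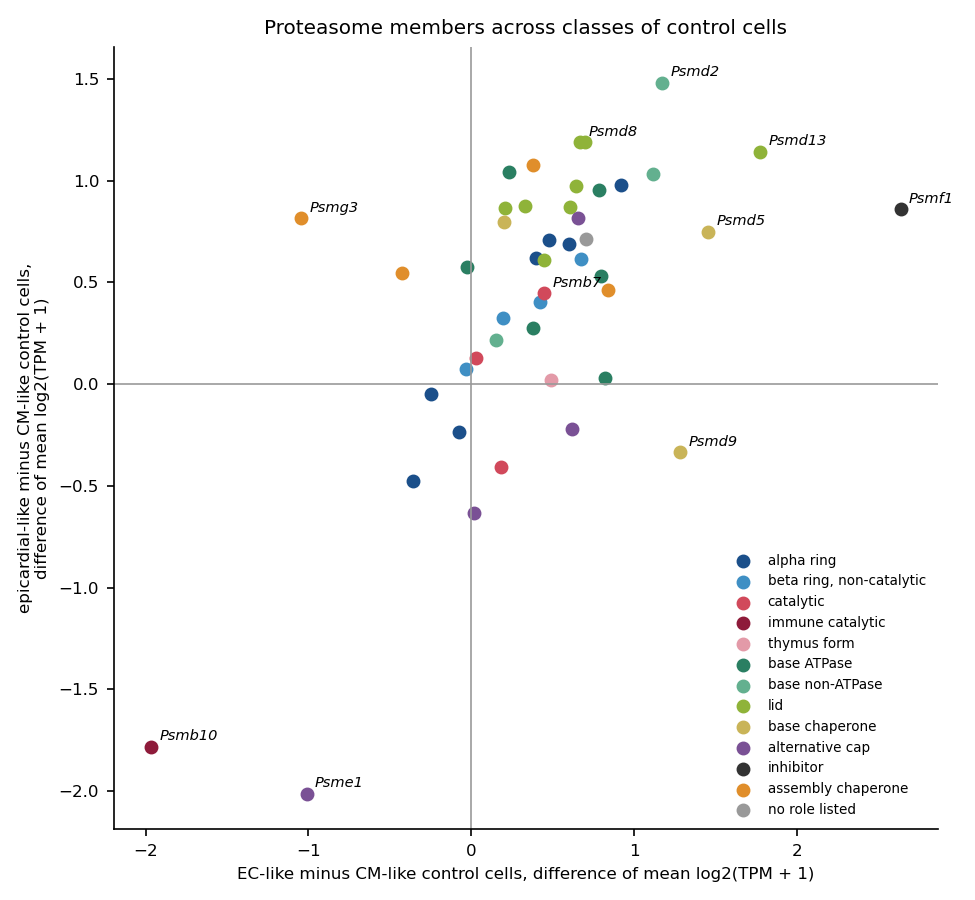
Difference of the mean log2(TPM + 1) from control CM-like cells for each member in control EC-like cells (x axis) and in control epicardial-like cells (y axis), coloured by role. Both axes subtract the same CM-like cells, so their joint spread is not read. Psmb10 and Psme1 lie below 0 on both axes, Psmf1 is furthest to the right, and Psmg3 is on opposite sides. The values pool the batches, and Psmg3 was not lower in EC-like cells of batch 1.

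Psmb10 thus had its highest levels in control CM-like and erythroid-like cells. Its mean was 4.14 ± 2.55 in 27 control CM-like, 4.08 ± 2.30 in 5 erythroid-like, 2.36 ± 2.20 in 13 epicardial-like, 2.17 ± 2.42 in 22 EC-like and 1.59 ± 2.29 in 67 cKO CM-like cells. Neighbours in that order differed by less than the SD across cells. Psmg3 was ordered otherwise, with 5.84 ± 1.06 in erythroid-like, 4.81 ± 2.44 in epicardial-like, 4.00 ± 3.20 in control CM-like, 2.95 ± 3.13 in EC-like and 1.80 ± 2.54 in cKO CM-like cells. Psmb7 was at 8.62 ± 0.39 in EC-like, 8.61 ± 0.75 in epicardial-like, 8.38 ± 0.56 in erythroid-like, 8.17 ± 1.82 in control CM-like and 6.82 ± 2.34 in cKO CM-like cells. For all 3 genes, the cKO CM-like cells had the lowest mean of the 5 groups. The genes were chosen for being at least 1 lower in these same cKO cells, so that place follows largely from the choice. The means also pool the batches. In batch 1, Psmb10 differed from control CM-like cells by −1.35 in EC-like and by −1.58 in cKO CM-like cells.

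The scatter across cells was larger for the scarce members. The coefficient of variation of TPM across control CM-like cells was 45.1% for Psma1 and 46.3% for Psmb7, and it was 133% for Psmb10 and 147% for Psmg3. In cKO cells it was 72.1% for Psmb7, 183% for Psmb10 and 184% for Psmg3. Psmb10 and Psmg3, which many cells listed at 0, thus varied more across cells than the abundant core genes in either genotype.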

How the data were processed

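Single cells were sequenced by Smart-seq2, and the authors deposited TPM values made with Salmon against mm10 (Salmon's version and the annotation release are not given in the sources used here). The table holds 143 cells of 170 labelled samples, each column matched by title, and the other 27 samples were not analysed here. Members, partner lists and markers were chosen with earlier results of these data known. Cells were clustered by Ward linkage on z-scored log2(TPM + 1) of 55 markers into 5 clusters, which were named where at least 3 markers of a class were raised. No doublet caller was run, since cells were picked by hand. Differences are of the mean log2(TPM + 1), and the pseudocount of 1 understates differences of scarce genes. Genes with TPM above 0 in more than 10 cells of the comparison were kept, and "abundant" means a mean of at least 5. No test was possible with 1 sample per genotype. The rule for named members was the 6 catalytic subunits, the lowest and highest of each role with 1 sign in both batches, members at least 1 apart, and members never at 1 TPM. Other members were named after their values were seen. Shares have 95% Clopper-Pearson intervals, and a share of 0 allows 3 cells of the total. Depth is unknown, because the TPM of each cell sum to between 996133 and 999999. Positions and overlaps come from GENCODE annotation of GRCm38 and start site windows from RefSeq (GRCm38.p6). Scripts used Python 3.11.15, pandas 2.3.3, numpy 2.4.6 and scipy 1.17.1 and were tested on simulated data.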

Additional observations from a re-analysis of the deposited data

Results flagged for a closer look

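The genotype difference did not keep 1 sign across the sequencing batches for 19 of 47 members and for 6785 of 15071 genes. The share of members was thus not above that of all genes. For 2 of the 19 members, the difference was at least 0.5 in size in each batch, with opposite signs. Psmd3, a lid subunit, differed between cKO and control CM-like cells by 2.05 in batch 1 and by −0.76 in batch 2 in mean log2(TPM + 1). Psmg4, an assembly chaperone, differed by 0.93 in batch 1 and by −2.72 in batch 2. Whether the batches differ was not tested for either gene, since cells are not replicates.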

How the results depend on the processing

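Of 130 values recomputed for the lists under 19 settings (16 planned and 3 chosen after seeing the data), 116 stayed within their limits. The limits were wide, namely the SD over members for medians, the SD across cells for sums and shares, and a factor of 1.5 for counts. For the genotype median the limit was 0.61, so −0.07 in batch 1 alone and −0.93 in batch 2 alone both passed. Division into 6 clusters repeated the main values. The count of 116 is therefore no measure of stability. Division into 4 marker clusters put the 9 unnamed cells into the CM-like class. The median difference of the members was then 0.36, the log2 ratio of the cap sum 0.0156 and the number lower in both batches 7. The medians of EC-like and epicardial-like cells were then 1.27 and 1.41. With cells of 7000 to 11000 detected genes and as log2 ratio of mean TPM, the median difference of the members was −0.23 each time. The medians of EC-like and epicardial-like cells were 0.16 and 0.25 as log2 ratio of mean TPM and 0.22 and 0.36 with cells under 15% mitochondrial TPM. In batch 2 alone the median of EC-like cells was −0.0077. Members at least 1 lower in cKO cells, 3 in the report, numbered 7 with a pseudocount of 0.1, 7 with clusters of the 1000 most variable genes without markers, 5 with all cells, 20 in batch 2 alone, 8 as the mean of the batches, 7 with cells under 15% mitochondrial TPM, 1 without members at a mean under 5, and 3 to 8 with 1 cell left out. Of 285 values for 19 named genes, 268 kept their direction. Psmb7, Psmb10 and Psmg3 were lower in cKO cells in all 15 recomputed values each, between −1.66 and −0.33, −3.89 and −1.23, and −3.06 and −1.22. The 15 include the lowest and the highest value with 1 cell left out. These genes were chosen for their low values in the same cells, so the recomputed values are no separate support. No paired analysis was possible because replicate numbers here only name cells, and none of the values rests on a test. Without depth, a gene listed at 0 cannot be told from one below detection.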
